A study of Mus musculus with 2 samples.

Results

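The Ugt1a locus of mouse chromosome 1, with its neighbours Mroh2a and Hjurp, was examined for contacts recovered with Foxa2 in liver after GW4064 and after vehicle. The 10 genes were named for a pair of 50 kb bins that begins at 88100001 and 88250001, which was chosen by its contact counts in the same 2 libraries, so the values of that pair are a description and carry no test. They are Ugt1a10, Ugt1a9, Ugt1a8, Ugt1a7c, Ugt1a6b, Ugt1a6a, Ugt1a2, Ugt1a1, Mroh2a and Hjurp, of 49943 genes in the gene table, and they overlap 5 of the 54521 bins. All bin pairs within a window of 87.5 to 89.0 Mb were read, which holds 30 bins and 435 pairs of different bins.

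Foxa2 HiChIP had been performed on whole liver of wildtype mice. In the GW4064 group a single oral gavage gave GW4064, a synthetic agonist of FXR (the bile acid receptor Nr1h4), added to the vehicle, and in the vehicle group the gavage held the vehicle alone, propylene glycol with Tween 80. Both groups were wildtype, no other allele or agent is named, and livers were collected 4 h after gavage. The sources used here do not state the dose, the age of the mice or how many mice stand behind a library. Each group had 1 library, so every difference below is between those 2 libraries and has no replicate check.

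In HiChIP, DNA ends that lie close together in the nucleus are ligated and the ligated fragments are then recovered with an antibody, here an antiserum against Foxa2. Foxa2 is a forkhead transcription factor of liver that can bind its sites in closed chromatin. The Ugt1a genes encode UDP-glucuronosyltransferases, which attach glucuronic acid to bilirubin, bile acids, hormones and drugs so that they can be excreted. They share their last exons: each gene contributes its own promoter and first exon, which is spliced to the common exons at the 3' end of the cluster, so the genes overlap over most of their length. Ugt1a1 is the enzyme that conjugates bilirubin, and the Ugt1a6 enzymes prefer small planar phenols. Hjurp encodes the chaperone that deposits the centromeric histone variant CENP-A.

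On mm10, in the coordinates of GRCm38.p6, the first exons run from Ugt1a10 to Ugt1a1 along the plus strand. Ugt1a10 (88055411 to 88220002), Ugt1a9 (from 88070779), Ugt1a8 (from 88087828) and Ugt1a7c (from 88095001) begin in the bin that opens at 88050001, called the Ugt1a10 bin here. Ugt1a6b (from 88103257) and Ugt1a6a (from 88134809) begin in the next bin, called the Ugt1a6 bin. The bin that opens at 88150001 holds no start of a member and is called the intervening bin. The span of Ugt1a5, a Ugt1a gene that is not among the members, begins in it. Ugt1a2 (from 88200611), Ugt1a1 (88211959 to 88220002), the shared 3' end and the start of Mroh2a (88226991 to 88262289) all lie in the bin that opens at 88200001, called the Ugt1a1 bin. Hjurp (88258856 to 88277644, minus strand) and the end of Mroh2a lie in the bin that opens at 88250001, called the Hjurp bin. Genes that share a bin share its counts, so the 10 genes are not 10 measurements.

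Promoters of 9 of the 10 genes were found in the RefSeq table of GRCm38.p6, and Ugt1a6b was not in it. Each sequence runs from 250 bases before to 50 bases after the start site that the table gives, which for Mroh2a and Hjurp lies inside the gene span, and is written 5' to 3' on the strand of the gene. The first pair printed belongs to the ends of the named bin pair, Ugt1a6a (chr1:88134559-88134858, plus strand) and Hjurp (chr1:88277530-88277829, minus strand). The Ugt1a2 promoter (chr1:88200361-88200660, plus strand) holds the forkhead motif. The promoters of Ugt1a9 (chr1:88070529-88070828, plus strand) and Ugt1a10 (chr1:88055161-88055460, plus strand) are the most alike of the set. Capitals mark matches to the motifs that were searched.
Ugt1a6a: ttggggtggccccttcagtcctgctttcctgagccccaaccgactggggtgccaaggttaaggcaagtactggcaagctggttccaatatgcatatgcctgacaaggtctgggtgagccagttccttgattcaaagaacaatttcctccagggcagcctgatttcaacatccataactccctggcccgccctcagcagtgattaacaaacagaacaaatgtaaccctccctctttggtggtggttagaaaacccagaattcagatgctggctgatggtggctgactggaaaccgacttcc
Hjurp: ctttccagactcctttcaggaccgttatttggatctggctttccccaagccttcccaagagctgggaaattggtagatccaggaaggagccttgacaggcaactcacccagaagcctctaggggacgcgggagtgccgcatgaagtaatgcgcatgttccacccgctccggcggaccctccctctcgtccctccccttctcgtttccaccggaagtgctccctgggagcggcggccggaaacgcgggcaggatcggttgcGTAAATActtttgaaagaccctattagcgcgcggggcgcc
Ugt1a2: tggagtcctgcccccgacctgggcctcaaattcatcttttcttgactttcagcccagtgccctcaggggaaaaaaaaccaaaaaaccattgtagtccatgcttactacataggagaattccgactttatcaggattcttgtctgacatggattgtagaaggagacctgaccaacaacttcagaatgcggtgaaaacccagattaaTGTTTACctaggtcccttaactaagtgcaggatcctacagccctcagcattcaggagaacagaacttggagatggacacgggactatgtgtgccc
Ugt1a9: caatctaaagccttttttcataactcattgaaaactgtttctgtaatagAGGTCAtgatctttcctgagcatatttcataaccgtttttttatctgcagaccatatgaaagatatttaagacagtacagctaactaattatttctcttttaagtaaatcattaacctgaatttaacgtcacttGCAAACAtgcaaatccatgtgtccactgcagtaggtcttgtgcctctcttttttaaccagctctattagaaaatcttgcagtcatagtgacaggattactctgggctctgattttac
Ugt1a10: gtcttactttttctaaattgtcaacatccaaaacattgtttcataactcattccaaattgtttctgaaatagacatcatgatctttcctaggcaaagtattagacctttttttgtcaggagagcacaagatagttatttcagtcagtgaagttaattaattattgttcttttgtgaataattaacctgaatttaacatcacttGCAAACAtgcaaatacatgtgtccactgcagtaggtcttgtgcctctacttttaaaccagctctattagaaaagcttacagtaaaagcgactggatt

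The motifs were read on both strands, and no match overlapped another. For forkhead factors they were TGTTTAC and the related forms with the letters TATTTAC or with the letters TGTTTGC. For nuclear receptors a half-site of AGGTCA was read, beside the inverted repeat of such half-sites that FXR binds. Among the 9 promoters, TGTTTAC occurred in Ugt1a2 alone, at position -45 counted from the start site as 0, and it occurs in 3.65% of the 32851 promoters of the table. Hjurp held TATTTAC on the opposite strand at position 10, a motif of 3.04% of promoters. Ugt1a9 and Ugt1a10 both held TGTTTGC on the opposite strand, at positions -67 and -47, against 5.07% of promoters. Ugt1a7c and Ugt1a9 held AGGTCA, which 16.3% of promoters hold. None of the 9 held the inverted repeat, which occurs in 0.0396% of promoters, and Ugt1a1, Ugt1a6a, Ugt1a8 and Mroh2a held no match to any of these letters. Ugt1a9 and Ugt1a10 were 70.9% identical, with 229 matches over 323 aligned positions including gaps, whereas the next most alike of the 36 pairs of promoters reached 52.3% and the median was 46.2%. A match describes letters only, since a 50 kb bin cannot place binding within it.

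The GW4064 library held 29003442 contacts and the vehicle library 22686004. Of these, 27.15% in GW4064 and 25.07% in vehicle joined ends within 1 bin, 23.5% and 21.11% joined different bins up to 1 Mb apart (called local contacts), and 18.47% and 22.47% joined different chromosomes. Ratios of a bin or locus are therefore scaled to the library total of their own class of contact, and all are GW4064 over vehicle. Intervals are 95% intervals of counting error only. In whole tissue, contacts in fewer cells, fewer contacts per cell and less Foxa2 on the DNA cannot be told apart. By the median of each list, hepatocyte marker loci were not set apart from those of other liver cell types by same-bin contacts. Single hepatocyte loci ranged from percentile 5.997 to 85.56 in GW4064 and from 26.07 to 97.65 in vehicle, with Cyp2e1 the highest in vehicle. The median percentile among bins was 33.27 in GW4064 and 54.76 in vehicle for 7 hepatocyte genes, against 23.67 to 50.73 in GW4064 and 38.86 to 60.05 in vehicle for the Kupffer and leukocyte, endothelial, stellate and cholangiocyte lists, and contacts do not measure expression.

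The Ugt1a1 bin and the Hjurp bin were among the bins with the most contacts with other chromosomes in both libraries. The Ugt1a1 bin had 1519 contacts with other chromosomes in GW4064 and 1496 in vehicle, and the Hjurp bin had 1357 in GW4064 and 1503 in vehicle. Among 51278 bins with contacts these were rank 3 and rank 6 from the top in GW4064, and rank 5 and rank 4 in vehicle. The median bin had 206 such contacts in GW4064 and 199 in vehicle, so the Ugt1a1 bin was 7.37 and 7.52 times the median. In all, 9 bins in GW4064 and 8 in vehicle passed 1000. The step was sharp: the intervening bin had 193 contacts with other chromosomes in GW4064 and 202 in vehicle, and the Trpm8 bin on the far side had 413 in GW4064 and 391 in vehicle. Trpm8 encodes a cold-sensing ion channel.

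The same 2 bins were high in every other class of contact, least so for local contacts. Within the bin, the Ugt1a1 bin held 605 contacts in GW4064 and 533 in vehicle, rank 2 in both libraries, and the Hjurp bin held 467 and 438, rank 5 in GW4064 and rank 3 in vehicle. The remaining 3 member bins held 123 to 152 in GW4064 and 92 to 121 in vehicle. Contacts farther than 1 Mb on chromosome 1 came to 1056 in GW4064 and 857 in vehicle for the Ugt1a1 bin, and to 945 and 811 for the Hjurp bin. Local contacts were 1.71 times the median bin in GW4064 and 2.19 times in vehicle for the Ugt1a1 bin, and 1.66 and 2.29 times for the Hjurp bin. Of all contacts of the Ugt1a1 bin, 41.82% in GW4064 and 45.36% in vehicle were with other chromosomes, against 21.62% and 24.11% for the Ugt1a6 bin. The part of this excess in any difference between the libraries was not tested, and the counts of window pairs, the contacts of the member block and the local contacts of the Ugt1a locus are given with and without these 2 bins.

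**Figure D1:**
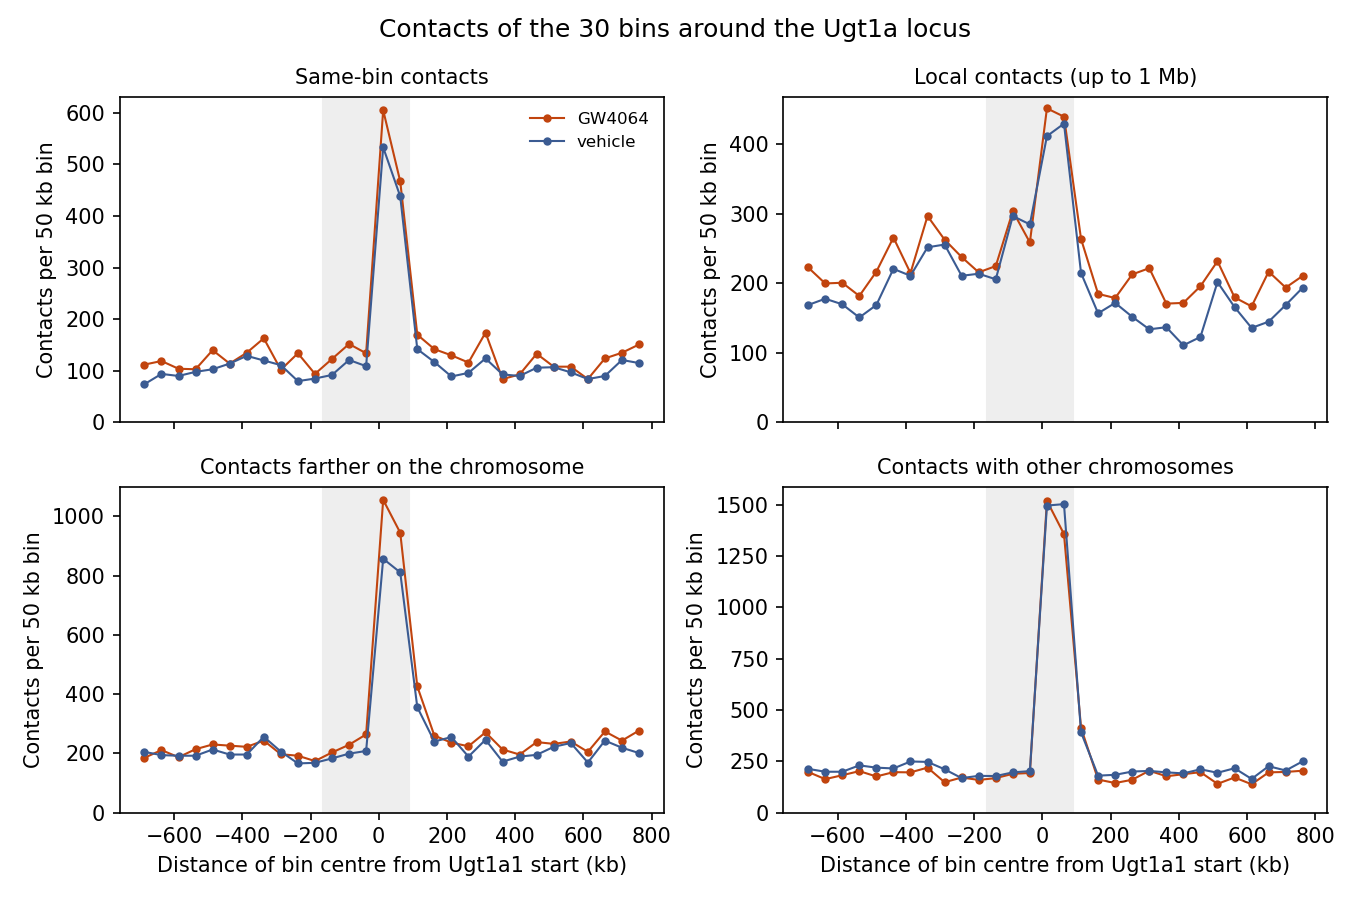
Contacts per 50 kb bin (vertical axis) against the distance of the bin from the start of Ugt1a1 in kb, for 30 bins in 4 classes of contact, with GW4064 in orange, vehicle in blue and the 5 member bins shaded. Both libraries show the same pair of high bins at the right of the shading, reaching 1519 contacts with other chromosomes in GW4064 and 1503 in vehicle.

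In both libraries these distant contacts went more often to the start of chromosome 1 and to chromosome 2 than those of the neighbouring bins did. Of the contacts of the Ugt1a1 and Hjurp bins farther than 1 Mb from both on chromosome 1, 395 of 2001 in GW4064 (19.74%, 18.02 to 21.55, Clopper-Pearson) and 297 of 1666 in vehicle (17.83%, 16.02 to 19.75) lay in the first 10 Mb of the chromosome. For the Ugt1a6 bin and the intervening bin the count was 8 of 491 in GW4064 (1.63%) and 4 of 406 in vehicle (0.985%). Counts per 5 Mb were highest in the first 25 Mb, at 104 to 213 in GW4064 and 93 to 157 in vehicle. They were 38 to 77 in GW4064 and 32 to 62 in vehicle from 25 to 85 Mb, and higher again beside the locus, with 82 in GW4064 and 99 in vehicle at 90 to 95 Mb. The block of 85 to 90 Mb holds the locus and is counted only beyond 1 Mb. It had 66 in GW4064 and 69 in vehicle. Beyond 95 Mb no block passed 31 in GW4064 or 33 in vehicle. Chromosome 2 took 463 of 2863 contacts with chromosomes 2 to 19 and X in GW4064 (16.17%, 14.84 to 17.57) and 396 of 2987 in vehicle (13.26%, 12.06 to 14.53). The share was larger in GW4064, and the 2 intervals do not overlap, but they cover counting error only. The intervals of chromosome 14 did not overlap either, in the opposite direction. Its share was 3.42% (2.79 to 4.16) in GW4064 and 4.955% (4.20 to 5.795) in vehicle. Over all bins, chromosome 2 took 6.70% of such contacts in GW4064 and 6.81% in vehicle. Within chromosome 2, its first 80 Mb held 375 of these contacts in GW4064 and 289 in vehicle, against 88 and 107 for the rest. This direction was not particular to chromosome 2. With each part scaled to its contacts with other chromosomes, the same direction held in GW4064 on chromosomes 3 to 18 and X. In vehicle it held on these chromosomes except chromosome 6, where the rest was slightly higher. On this scale the first 80 Mb was highest on chromosome 2 in both libraries. For the Ugt1a6 and intervening bins, chromosome 2 took 7.90% in GW4064 and 7.83% in vehicle. The limits of 10 Mb and 80 Mb were set after these values were seen.

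**Figure D2:**
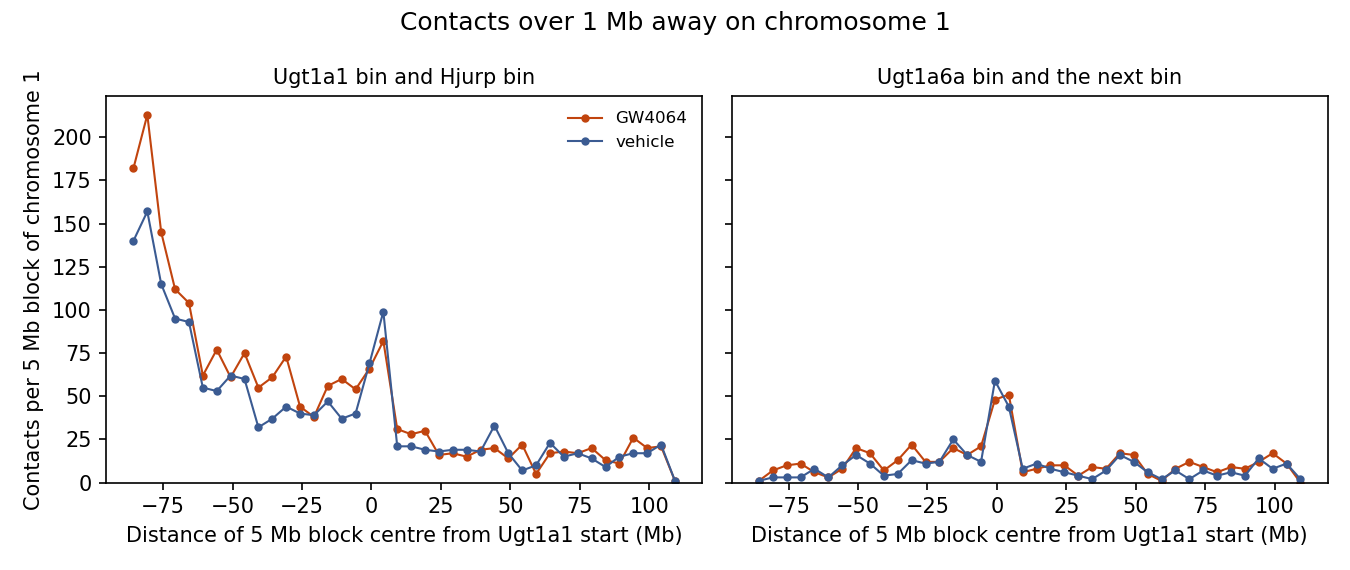
Contacts per 5 Mb block of chromosome 1 (vertical axis, only contacts farther than 1 Mb from both bins of a panel) against the distance of the block from the start of Ugt1a1 in Mb, for the Ugt1a1 and Hjurp bins (left) and the Ugt1a6 bin with the intervening bin (right), GW4064 in orange and vehicle in blue. On the left, the first 25 Mb hold the highest blocks, up to 213 in GW4064 and 157 in vehicle, with a lower peak beside the locus, and on the right the first block holds 1 contact in each library.

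The Ugt1a6 bin and the Hjurp bin, 150 kb apart, shared 22 contacts in GW4064 (exact Poisson interval 13.8 to 33.3), against 43 in vehicle (31.1 to 57.9). The deeper library thus had fewer. At that separation 11.4 contacts were expected in GW4064 and 7.74 in vehicle from the mean of all pairs of chromosomes 1 to 19 and X, so the pair was at 1.93 times the expected number in GW4064 and 5.55 times in vehicle. The ratio was 0.347 (0.198 to 0.593), rank 155 from the lowest of the 21183 pairs at this separation with at least 20 contacts. These are the values the pair was named for.

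Scaled also to the local contacts of both bins, the same pair lay nearer to the rest. Expected numbers came to 19.4 in GW4064 and 26.2 in vehicle, the pair was at 1.13 times expected in GW4064 and 1.64 times in vehicle, and the ratio was 0.689 (0.393 to 1.18), an interval that includes 1. By this measure it was rank 3151 from the lowest. With all contacts of each bin as coverage the ratio was 0.526 (0.300 to 0.899), and after iterative balancing of chromosome 1 it was 0.418 (0.238 to 0.715). Over the 3 by 3 block of bin pairs around the pair, the ratio was 0.611 scaled to separation and 1.21 (0.992 to 1.47) scaled also to coverage, so the direction turned with the size of the block and the scaling.

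By a rule of nearest values, 5 of 614 pairs at the same separation were most like this pair in observed over expected contacts with coverage in the 2 libraries. The nearest was a pair within Akap13 on chromosome 7, with 25 contacts in GW4064 and 26 in vehicle and a distance of 0.13 on the log2 scale. Pairs within Pard3b (25 and 26 contacts), between Clhc1 and the Rtn4 and Eml6 bin (28 and 31), within Erbb4 (39 and 27) and within Ncam2 (43 and 39) followed, with GW4064 first in each. Likeness over 2 libraries describes those libraries only.

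All 10 pairs among the 5 member bins held at least 20 contacts over both libraries, as did 70 of the 435 pairs of the window. The strongest was the Ugt1a1 bin with the Hjurp bin, which are adjacent, with 210 contacts in GW4064 and 196 in vehicle and a ratio scaled to separation of 0.776 (0.636 to 0.948). The Ugt1a6 bin shared 35 contacts with the Ugt1a1 bin in GW4064 and 31 in vehicle, a ratio of 0.769 (0.461 to 1.29). The difference between this ratio and that of the Ugt1a6 bin with the Hjurp bin was not tested, and their intervals overlap. The intervening bin shared 34 contacts with the Hjurp bin in GW4064 and 45 in vehicle, a ratio of 0.515 (0.320 to 0.822), and 65 with the Ugt1a1 bin in GW4064 and 69 in vehicle, a ratio of 0.682 (0.479 to 0.972). The Ugt1a10 bin shared 68 contacts with the Ugt1a6 bin in GW4064 and 48 in vehicle, and between 11 and 14 with each of the remaining 3 member bins in either library. Its ratio with the Ugt1a6 bin was 1.03 (0.699 to 1.52).

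The direction of the member pairs depended on the scaling. Scaled to separation, 9 of the 10 had a ratio below 1 and the median log2 ratio was -0.50, but scaled also to bin coverage 9 of the 10 were above 1 and the median was 0.51, the exception being the Ugt1a6 bin with the Hjurp bin. Bin coverage enters the expected number as the product of the local contacts of both bins, and relative to the library total these were lower in GW4064 for all 5 member bins. Among the 3 pairs without the Ugt1a1 and Hjurp bins, the log2 ratios were 0.04, -0.55 and -0.55 scaled to separation, and 0.93, 0.51 and 0.61 with coverage. Of the 10, 1 pair was at least 2-fold lower scaled to separation, the pair the members were named for, where 3.42% of the 138989 pairs of all chromosomes were, and 0 were 2-fold higher, where 4.89% were. With coverage, 0 of the 10 were 2-fold lower and 0 were 2-fold higher, against 2.15% and 4.42%. In the window, 5 of 70 pairs were 2-fold lower and 3 were 2-fold higher scaled to separation, and 0 and 7 with coverage. Without the Ugt1a1 and Hjurp bins these counts were 4 and 3 of 59 pairs scaled to separation, and 0 and 5 with coverage. Over all chromosomes the median log2 ratio was 0.03 scaled to separation and 0.05 with coverage.

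**Figure D3:**
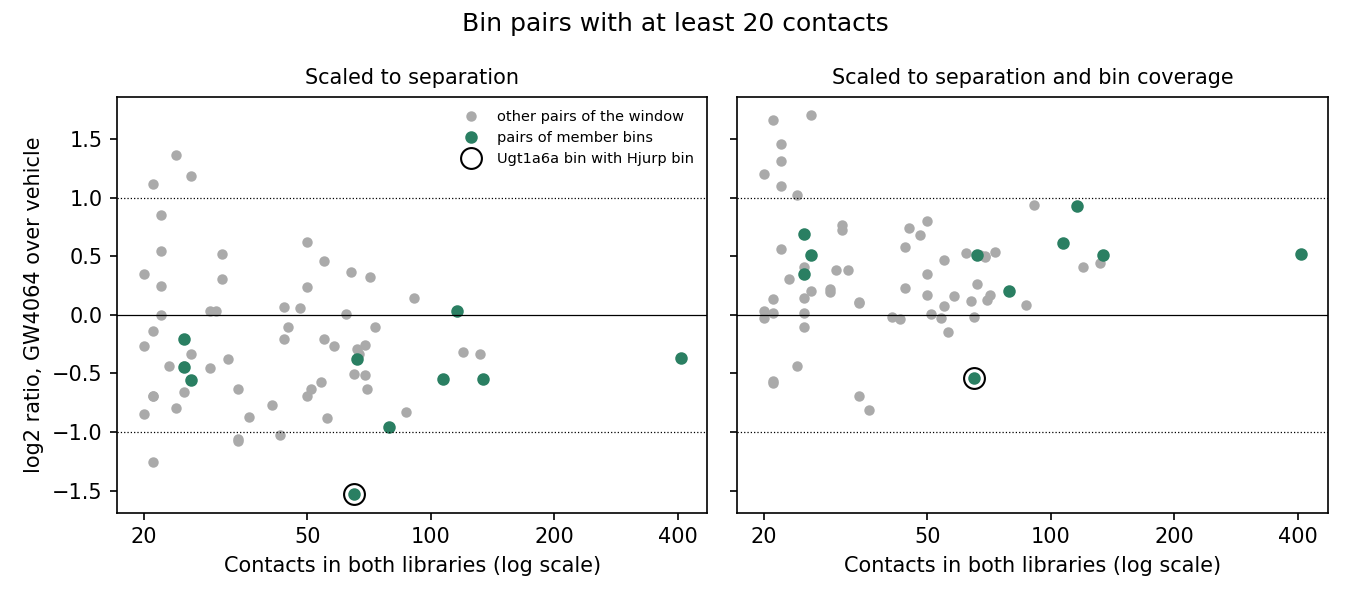
log2 ratio of contacts, GW4064 over vehicle (vertical axis), against contacts in both libraries (log scale) for the 70 bin pairs of the window with at least 20 contacts, scaled to separation (left) and also to bin coverage (right). Green points are the 10 pairs of member bins, the circle is the Ugt1a6 bin with the Hjurp bin, and dotted lines mark 2-fold. The median of the green points is -0.50 on the left and 0.51 on the right.

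The 5 member bins had more contacts with each other than separation alone predicts, and fewer with the Trpm8 side. Contacts among the member bins were 526 in GW4064 and 523 in vehicle, which is 2.06 times the number expected from separation in GW4064 (1.89 to 2.25) and 2.89 times in vehicle (2.65 to 3.15). The ratio was 0.715 (0.632 to 0.808). Much of this was the adjacent Ugt1a1 and Hjurp bins: among the remaining 3 member bins there were 133 contacts in GW4064 and 116 in vehicle, 1.29 and 1.56 times expected, with a ratio of 0.823 (0.637 to 1.07) whose interval includes 1. With the 5 bins on the Usp40 side they shared 252 contacts in GW4064 and 260 in vehicle, 1.08 and 1.61 times expected, a ratio of 0.670 (0.561 to 0.800), and without the Ugt1a1 and Hjurp bins the ratio was 0.644 (0.524 to 0.790). Usp40 encodes a member of the ubiquitin-specific protease family. With the 5 bins on the Trpm8 side they shared 156 in GW4064 and 131 in vehicle, 0.667 and 0.810 times expected, and the ratio of 0.823 (0.648 to 1.05) has an interval that includes 1. Without the Ugt1a1 and Hjurp bins the Trpm8 side was at 0.382 times expected in GW4064 and 0.527 times in vehicle, a ratio of 0.725 (0.444 to 1.19). The member bins thus had fewer contacts with the Trpm8 side than with the Usp40 side in either library, with and without those 2 bins. A ratio below 1 was not confined to the member bins. Among the bins of the Usp40 side themselves it was 0.776 (0.646 to 0.933), and among those of the Trpm8 side 0.923 (0.744 to 1.15).

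Insulation, the log2 of contacts crossing a bin within 500 kb over the chromosome mean, gave the same 3 boundaries in both libraries, in bins of Usp40, Trpm8 and Arl4c. The boundary at Trpm8, next to Hjurp, was the deepest of these, with a depth of 1.40 in GW4064 and 1.27 in vehicle on the log2 scale. It ranked 18 of 256 boundaries of chromosome 1 by depth in GW4064 and 29 of 251 in vehicle. Among the member bins, insulation was lowest in the Hjurp bin beside that boundary, at -1.26 in GW4064 and -0.90 in vehicle. It was -0.82 in GW4064 and -0.15 in vehicle in the Ugt1a1 bin, and highest in the Ugt1a10 bin, at -0.38 in GW4064 and 0.06 in vehicle. Lower values in GW4064 were not particular to the members. They held in every bin of the window but that of Spp2, at -0.896 in GW4064 and -0.908 in vehicle. In the first bin of the window, of Ngef, insulation was -0.36 in GW4064 and 0.03 in vehicle. The Usp40 boundary was shallow, with a depth of 0.28 in GW4064 and 0.32 in vehicle. With a 250 kb window the vehicle library had a boundary in the bin of Atg16l1 and Sag in place of the one at Usp40.

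**Figure D4:**
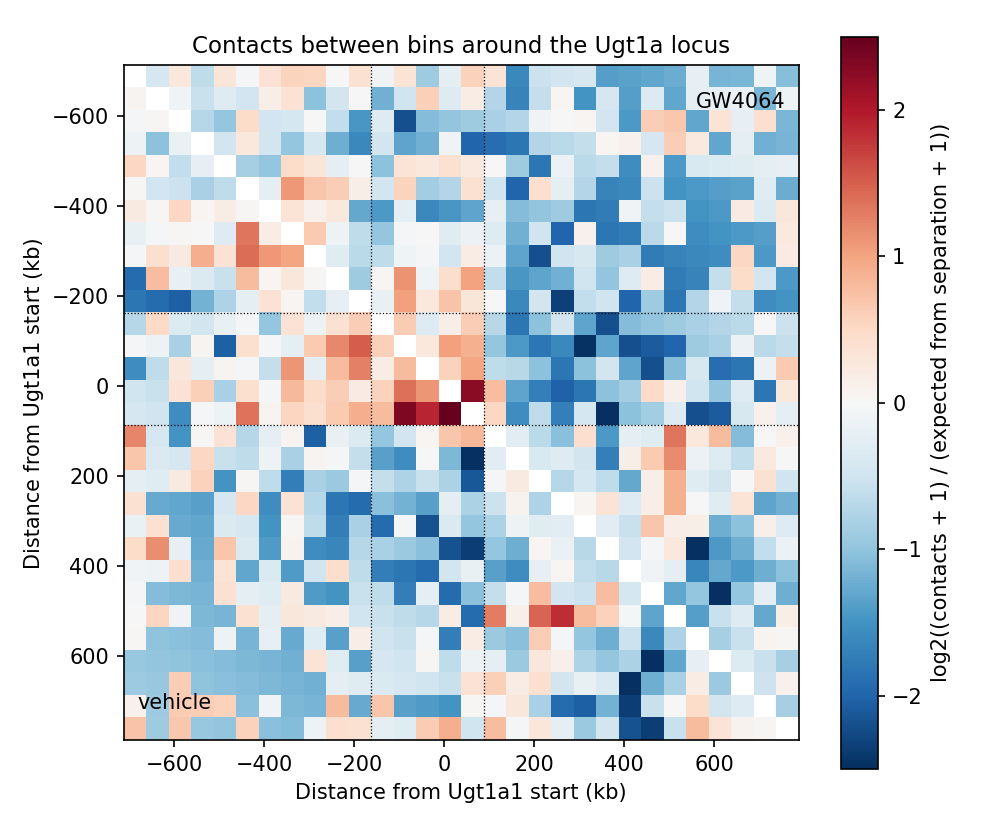
Contacts between the 30 bins, as log2 of contacts plus 1 over the number expected from separation plus 1 (colour), with distance from the start of Ugt1a1 in kb on both axes, GW4064 above the diagonal and vehicle below, and the member bins between dotted lines. Red squares gather between the dotted lines, where contacts were 2.06 times expected in GW4064 and 2.89 times in vehicle, and turn to blue past the line on the Trpm8 side.

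Pairs enriched over both separation and coverage, with 10 or more contacts that reach 2 times the expected number, did not join member bins to each other in either library. The window held 18 of 79 such pairs in GW4064 and 7 of 66 in vehicle, of which 5 were shared, against 19% of pairs of the same separations over all chromosomes in GW4064 and 16.5% in vehicle. The Ugt1a6 bin took part in 2, both with bins of Usp40 and both past the limit in GW4064 alone. With the nearer Usp40 bin it shared 35 contacts in GW4064, 2.54 times expected, and 34 in vehicle, 1.80 times expected. With the farther Usp40 bin it shared 26 in GW4064, 2.48 times expected, and 19 in vehicle, 1.48 times. The ratios scaled to separation and coverage were 1.41 (0.855 to 2.33) for the nearer bin and 1.67 (0.891 to 3.20) for the farther one, and both intervals include 1. Scaled to separation alone they were 0.701 (0.425 to 1.16) and 0.928 (0.494 to 1.77), so the direction turned with the scaling. The 5 shared pairs all lay on the other side of the Trpm8 boundary, ending in the bins of Arl4c, which encodes a small GTP-binding protein. None of the pairs in either library involved the Ugt1a1 or the Hjurp bin. Local contacts, which were high in both of these bins, raise the expected number in this measure. From separation alone the pair of these 2 bins was at 4.84 times expected in GW4064 and 6.23 times in vehicle. With coverage it was at 1.93 times in GW4064 and 1.34 times in vehicle.

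Local contacts of every member were lower in GW4064 relative to the library total, as were those of the median protein-coding locus. The 4 bins of the Ugt1a locus held 994 local contacts in GW4064 and 972 in vehicle, a log2 ratio of -0.48 (-0.61 to -0.35). Mroh2a had 682 in GW4064 and 646 in vehicle, a log2 ratio of -0.43 (-0.59 to -0.27), and Hjurp had 440 and 430, a log2 ratio of -0.48 (-0.67 to -0.28). The interval lay below 0 for 39.8% of 21402 protein-coding loci and above 0 for 5.24%, the median locus was at -0.16, and the Ugt1a locus was at percentile 18.76. Without the Ugt1a1 and Hjurp bins the log2 ratio of the Ugt1a locus was -0.55. All contacts of the Ugt1a locus gave -0.21 (-0.27 to -0.16), and contacts with other chromosomes gave -0.07 (-0.16 to 0.02), an interval that includes 0. For contacts with other chromosomes the log2 ratio was -0.22 (-0.33 to -0.11) for Hjurp and -0.13 (-0.21 to -0.06) for Mroh2a, and both intervals lie below 0. Both of these genes lie wholly within the Ugt1a1 and Hjurp bins. The Ugt1a1 bin also held 1519 of the 2069 such contacts of the Ugt1a locus in GW4064 and 1496 of 2072 in vehicle. Among the 25 window bins outside the members the median was -0.245 for contacts with other chromosomes and -0.229 for all contacts. Of those bins, 24 and 25 lay below 0.

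By single bins, the 5 member bins had log2 ratios of local contacts from -0.65 to -0.38, with a median of -0.48, and the other 25 bins of the window had a median of -0.27, 21 of them below 0. The intervening bin was the 1 of 5 member bins, and the 1 of 30 window bins, that was at least 1.5-fold lower with an interval that excludes 1. It had 259 local contacts in GW4064 and 285 in vehicle, a ratio of 0.639 (0.538 to 0.758). Such lower bins made up 3.19% of the 49090 bins tested, and bins 1.5-fold higher, of which the window held 0, made up 0.226%. Neighbouring bins share contacts, so these bins are not independent.

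Genes of glucuronidation and bilirubin handling elsewhere in the genome varied around the same low median. All 32 genes of the list matched and formed 29 loci, of which 14 had an interval below 0, 0 above 0 and 15 including 0, where 39.8% of all protein-coding loci lay below 0 and 5.24% above. The list median was -0.15 against -0.16 for all protein-coding loci. Among the lowest were Abcc3, an exporter of glucuronides at the basolateral membrane, with 340 contacts in GW4064 and 385 in vehicle and a log2 ratio of -0.69, and Ppara, the receptor for fatty acids, with 401 and 432 and a log2 ratio of -0.62. The highest were the shared locus of Ugt2a1 and Ugt2a2, with 458 in GW4064 and 277 in vehicle and a log2 ratio of 0.22, Ugt2b37, with 746 and 474 and 0.15, and Blvra, the biliverdin reductase, with 256 and 171 and 0.07. The intervals of these last 3 loci include 0. The Ugt2 genes are another family of glucuronosyltransferases.

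**Figure D5:**
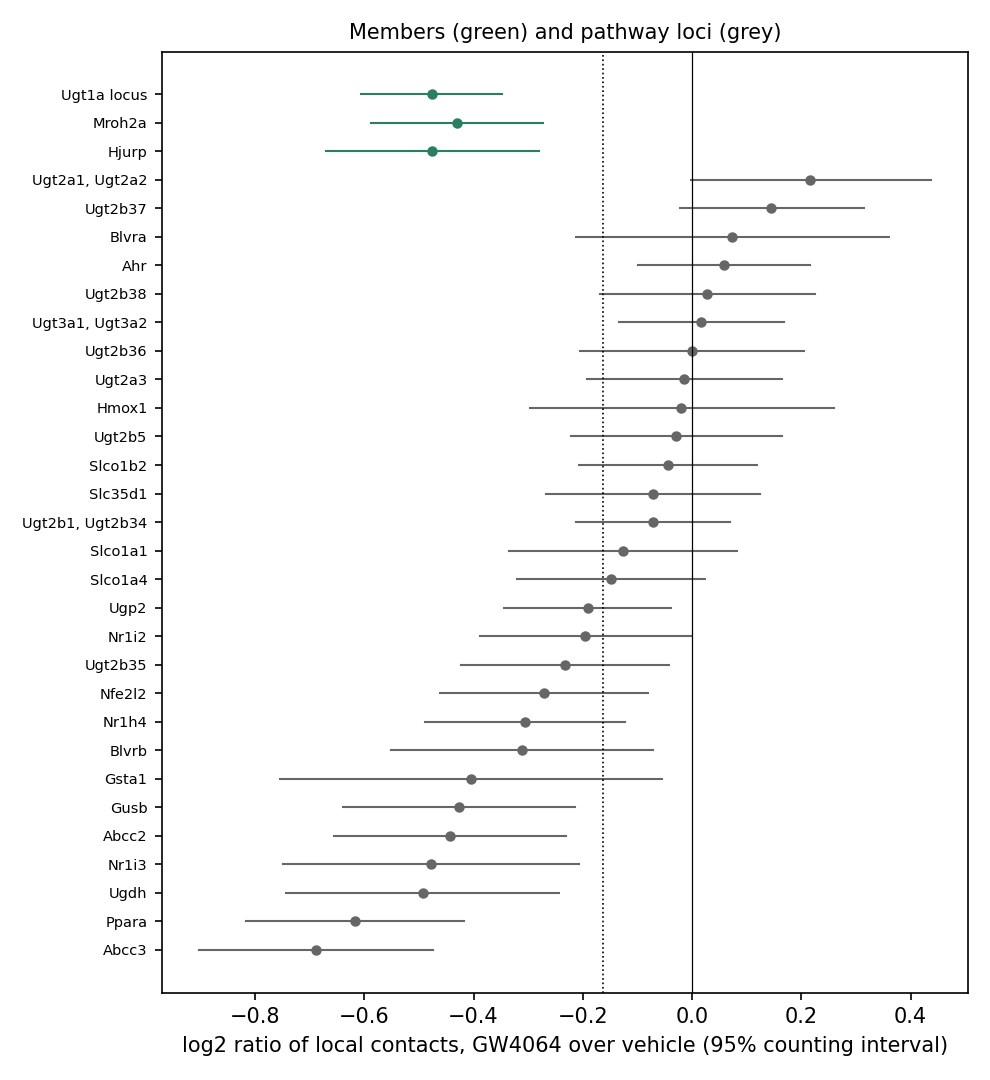
log2 ratio of local contacts, GW4064 over vehicle (horizontal axis), for the Ugt1a locus, Mroh2a and Hjurp (green) and the loci of the glucuronidation and bilirubin list (grey, 1 of the 29 not shown), with 95% counting intervals as bars and the median protein-coding locus as the dotted line. The 3 green intervals lie below 0, between -0.67 and -0.27.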

How the data were processed

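Per the submitters' processing notes, HiC-Pro and Bowtie2 2.2.9 were run by the authors on the mm10 build. Which HiC-Pro release, read filters and duplicate handling they used, and whether animals were pooled, is not given in sources used here. Deposited matrices hold raw counts of contacts per pair of 50 kb bins, without normalization. The deposited bin tables hold an index number for each bin, with no other unit, and are identical for both libraries.

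Member bins overlap the gene spans of a RefSeq gene table of GRCm38.p6. Expected numbers are the mean contacts of all pairs at the same separation on chromosomes 1 to 19 and X, from 50 to 1450 kb. With coverage, they are also scaled to the product of the local contacts of both bins, relative to the mean of that product. Ratios carry exact conditional binomial intervals, shares Clopper-Pearson intervals and single counts exact Poisson intervals. No p-value was computed, since each group has 1 library. Insulation boundaries are at least 0.2 deep on the log2 scale. Settings tried were other scalings, coverage measures, count minimums, windows and a GW4064 library thinned with seed 7.

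All members are named, with other genes of the window whose bin is described, the 5 pairs with at least 50 contacts, a protein-coding gene in each bin and values nearest to the named pair, and the 3 lowest and 3 highest loci of the pathway list with at least 200 local contacts. Of these, 1 locus is not reported here, though it is counted in the list. The members, lists and motifs were chosen with earlier results of these data known. Software was scipy 1.17.1, pandas 2.3.3, numpy 2.4.6, Biopython 1.88 and matplotlib 3.10.9 under Python 3.11.15. The ratio of a bin pair and its interval were tested on simulated counts at a single separation. Coverage scaling, enriched pairs and insulation were not part of that test.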

Additional observations from a re-analysis of the deposited data

How the results depend on the processing

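Of 66 recomputed values over 16 results, 42 stayed within the tolerance set for their kind (a count within 1.5 times, a ratio or log2 ratio within its counting interval, the list median between the quartiles of its loci), 23 moved and 1 reversed. The ratio of the Ugt1a6 bin with the Hjurp bin was 0.611 over the 3 by 3 block when scaled to separation, and 1.21 when scaled also to coverage. Under the other settings it was 0.323 to 0.400 scaled to separation and 0.418 to 0.685 with coverage. Window pairs 2-fold higher scaled to separation numbered 6 from 10 contacts up, 28 with no minimum beyond 1 contact in each library and 5 at 1.5-fold, and pairs lower numbered 17, 64 and 19 under the same settings. With coverage, pairs higher numbered 20, 58 and 16, and pairs lower numbered 21 with no minimum and 3 at 1.5-fold. The log2 ratio of the Ugt1a locus was -0.21 with all contacts, -0.22 with same-bin contacts, -0.32 at equal totals of all contacts and -0.31 with the median protein-coding locus as 0. For Mroh2a it was -0.26 with all contacts and -0.27 with the median locus as 0. No window bin was 1.5-fold lower (0) with all contacts. Enriched pairs with at least 20 contacts numbered 6 in GW4064 and 3 in vehicle, and with all contacts as coverage they numbered 27 in GW4064 and 18 in vehicle. Taking the median locus, at -0.164, as 0 shifts every locus by that value. The median of the pathway list thereby went from -0.149 to 0.015 and so changed sign. The cause of the remaining changes was not tested. The setting with local contacts to 500 kb as coverage and those without the Ugt1a1 and Hjurp bins were chosen after seeing the data.

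Of the pairs of the window, 16.1% held at least 20 contacts over both libraries, and the remaining pairs were not compared one by one, since their intervals are wide. Bins of 50 kb cannot separate promoters that share a bin. No paired analysis was possible because each group has 1 library, and leaving out a replicate was not possible for the same reason.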
